A study of Homo sapiens with 12 samples.

Results

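The genes described here are 10 members of the YAP/TEAD pathway, picked by name: the co-activators YAP1 and WWTR1 (the gene of TAZ), the DNA-binding partners TEAD1 and TEAD4, the pathway regulators LATS2 and AMOTL2, and the target genes CCN2 (listed on the array as CTGF), CCN1 (listed as CYR61), ANKRD1 and AXL. They had 11 of the 22184 probes of the array. Of these 10 genes, 8 were detected on enough arrays to be tested, among 12275 genes tested in all. AMOTL2 was detected on 0 of 12 arrays and TEAD1 on 1, and neither was tested.

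RNA came from the human triple-negative breast cancer line MDA-MB-231 and was hybridised to 12 single-colour Illumina bead arrays. Cells were transfected with a negative control siRNA (siNC) or with siRNA against EZH2 (the enzyme of Polycomb repressive complex 2 that methylates histone H3), RelA or RelB (both NF-kB transcription factor subunits). Each siRNA was studied without TNFalpha (CTRL) and after 10 ng/ml TNFalpha for 4 h (TNF), with 3 arrays each for siNC CTRL and siEZH2 CTRL and 1 array for each of the other 6 groups. Neither the independence of the replicate cultures nor the number of siRNA sequences per target is stated in the labels, so that a p-value refers to array-to-array spread that could be technical.

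YAP and TAZ carry no DNA-binding domain of their own and switch genes on by binding TEAD factors. The Hippo kinases, among them LATS2, phosphorylate YAP and TAZ and keep them in the cytoplasm, and angiomotin-family proteins such as AMOTL2 hold them there by direct binding. CCN2, CCN1, ANKRD1, AXL, AMOTL2 and LATS2 are all widely used as readouts of YAP/TEAD activity, the last 2 acting as negative feedback. The activity of YAP and TAZ is set mainly by phosphorylation and location, which an expression array does not measure.

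Promoters were read from a RefSeq table of GRCh38.p14, as 250 bases before and 50 bases after each gene's start, for the 7 of 10 members that it held. The letters GGAATG, the core of the site that TEAD factors bind, were searched on both strands (CATTCC on the other). CCN2 and ANKRD1 held more of them than the other members and are therefore shown, 5′ to 3′ on the gene's own strand, with each GGAATG in capitals. CCN2 is at chr6:131951323-131951622 on the minus strand and ANKRD1 at chr10:90921038-90921337 on the minus strand.
CCN2: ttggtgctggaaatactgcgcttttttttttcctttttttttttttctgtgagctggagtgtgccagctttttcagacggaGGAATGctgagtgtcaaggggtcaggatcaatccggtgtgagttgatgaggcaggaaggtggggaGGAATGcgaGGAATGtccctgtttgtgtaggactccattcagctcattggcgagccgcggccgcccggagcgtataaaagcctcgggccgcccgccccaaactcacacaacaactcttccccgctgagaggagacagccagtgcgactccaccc
ANKRD1: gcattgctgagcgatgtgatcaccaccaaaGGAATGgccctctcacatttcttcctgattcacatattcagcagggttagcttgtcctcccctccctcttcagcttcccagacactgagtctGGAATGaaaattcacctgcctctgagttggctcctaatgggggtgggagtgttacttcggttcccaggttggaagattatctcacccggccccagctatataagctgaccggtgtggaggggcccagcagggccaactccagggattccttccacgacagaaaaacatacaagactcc
The CCN2 promoter held 3 copies, beginning 169, 104 and 95 bases before the start. The ANKRD1 promoter held 2, beginning 220 and 128 bases before the start. Among 35116 promoters of this length, 14.0% held at least 1 copy, 1.37% at least 2 and 0.128% at least 3. YAP1, LATS2, and 1 of 2 listed promoters each of AMOTL2 and AXL held 1 copy, and the 2 promoters of WWTR1 held 0. The pattern TGANTCA, with N as any base, is a loose form of the site of AP-1 factors and reads the same on both strands. It occurred once in the ANKRD1 window, as TGATTCA, without overlapping a GGAATG. None of the other members' windows held it, against 7.71% of all promoters. These matches describe the letters of the windows and are not evidence of binding.

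Values are normalized log2 intensities unless called signals, and a log2 change is given ± its standard error (SE). Undetected probes had a median signal of 58.1 to 101.5 per array, and the arrays of replicate 2 had the highest, 101.5 for siNC CTRL and 99.7 for siEZH2 CTRL, against at most 80.1 on the other 10. Between 55.6% and 58.2% of probes were detected on each array. EZH2 lay between 8.30 and 9.52 on the arrays without siEZH2 and between 5.47 and 6.60 with it, RELA was undetected on both siRelA arrays, and RELB was lower with siRelB (5.09, not detected, and 6.30) than with siNC (7.76 to 8.32). RELB was also lower with siRelA, at 5.85 and 6.14. Of 6 markers of mesenchymal, basal-like breast lines, 4 were detected on all 12 arrays, as were 5 of 10 luminal or epithelial markers (ERBB2, EPCAM, KRT8, KRT18 and KRT19), and the luminal markers ESR1, PGR and FOXA1 were detected on 0. In the authors' processing, the 4 CTRL arrays of siNC and siEZH2 numbered 1 or 2 formed a first set and the other 8 arrays a second set.

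**Figure D1:**
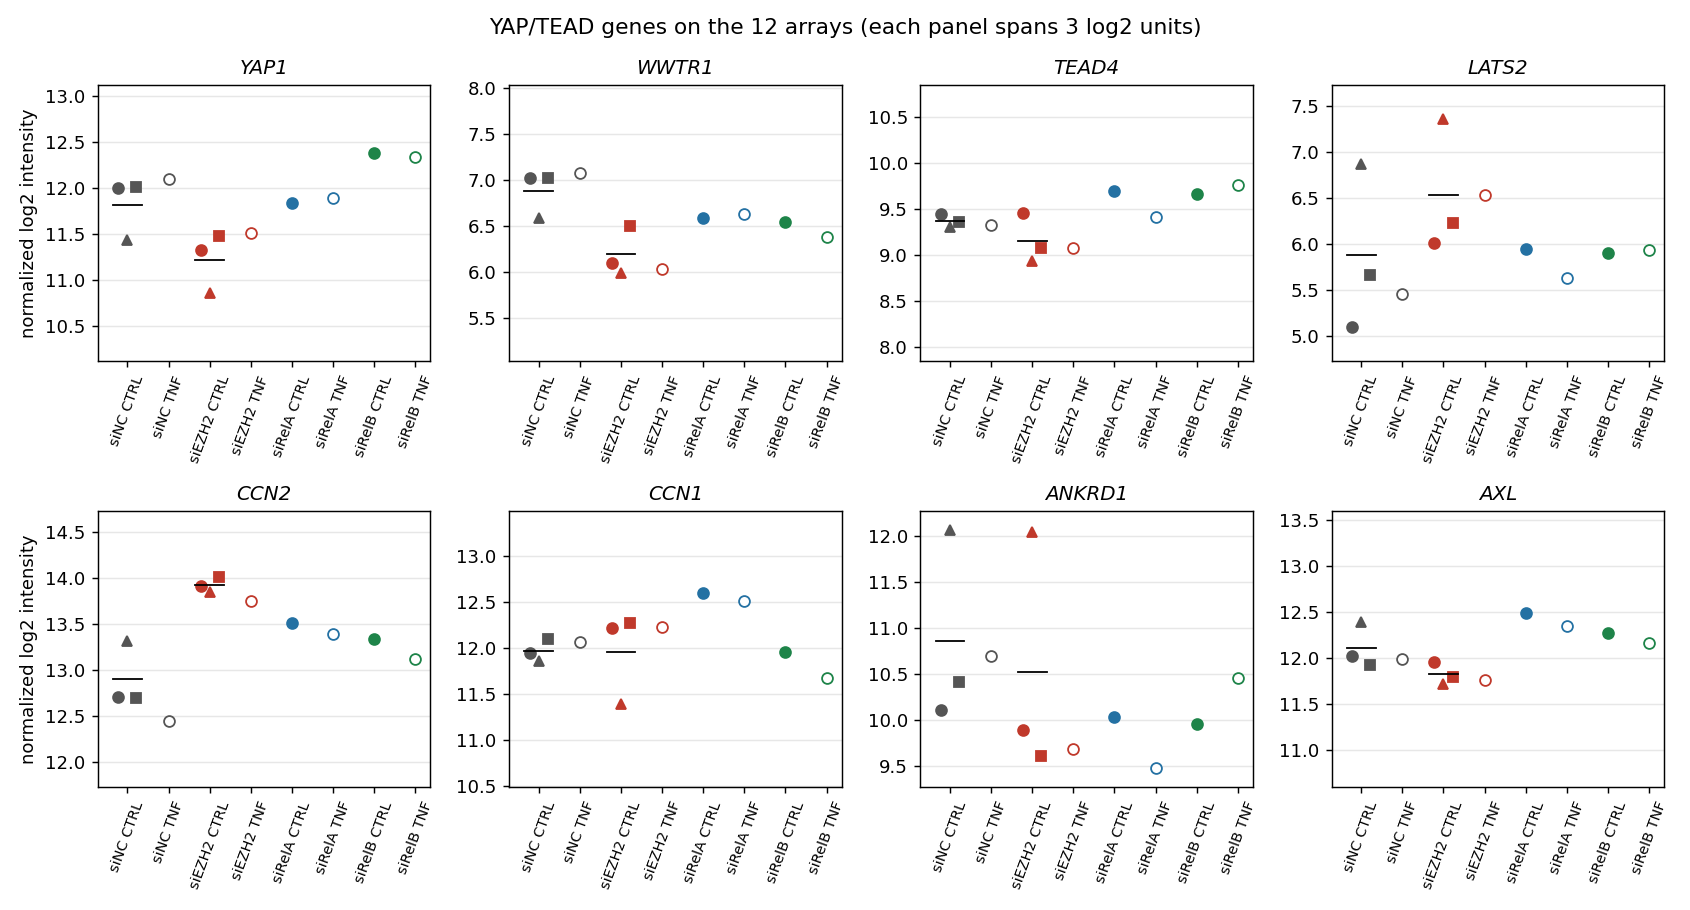
Normalized log2 intensity of the 8 tested YAP/TEAD genes on each of the 12 arrays, by siRNA (colour), without TNF (filled) and with TNF (open). Circles, triangles and squares mark replicates 1, 2 and 3, and bars mark the mean of 3 arrays. CCN2 was higher on all 4 siEZH2 arrays than on any other array, and ANKRD1 and LATS2 were highest on the replicate 2 arrays.

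The comparison of siEZH2 with siNC without TNF asked which genes depend on EZH2. Of the 8 tested YAP/TEAD genes, CCN2 rose and the other 7 did not pass the test, where 14.8% of all 12275 genes passed (7.87% higher and 6.92% lower). The co-activator genes YAP1 and WWTR1 were lower with siEZH2 in every pair of arrays, and their widely used target CCN2 was higher in every pair. Such agreement was common, as 30.2% of all genes were lower and 30.7% higher in every pair. The targets ANKRD1, CCN1 and AXL had log2 changes of -0.35, -0.01 and -0.29. RNA came from whole cultures, so fewer expressing cells and less RNA per cell cannot be told apart. The median log2 change of the 8 genes was -0.25, against -0.01 for all genes tested.

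YAP1 encodes the transcriptional co-activator at the end of the Hippo cascade. Its signal was 3988.5, 3165.7 and 4215.0 on the siNC CTRL arrays and 2476.9, 2077.2 and 2719.5 on the siEZH2 CTRL arrays of replicates 1, 2 and 3. The TNF arrays had 4384.2 with siNC and 2768.2 with siEZH2. The normalized values of the CTRL groups overlapped, with both replicate 2 arrays low in their groups (11.43 with siNC, 10.85 with siEZH2). The means were 11.81 ± 0.33 (SD, n = 3) with siNC and 11.22 ± 0.33 with siEZH2, a log2 change of -0.59 ± 0.25 (limma adjusted p = 0.179). Within pairs the difference was -0.67, -0.58 and -0.53 in replicates 1, 2 and 3 and -0.59 with TNF, a narrow range. With the replicate number as a block the change passed (adjusted p = 0.00418), where 43.6% of all genes passed.

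WWTR1 encodes TAZ, the paralogue of YAP. On the arrays of replicates 1, 2 and 3 its signal was 173.0, 203.1 and 175.7 with siNC and 117.1, 152.1 and 148.1 with siEZH2. With TNF it was 177.3 with siNC and 119.8 with siEZH2. These signals were low, and WWTR1 was nevertheless detected on all 12 arrays. On the log2 scale the CTRL groups did not overlap, with 6.59 to 7.03 for siNC and 5.99 to 6.49 for siEZH2. Of all genes tested, 16.1% had siEZH2 values wholly below siNC. The pair differences were -0.93, -0.60 and -0.52 and, with TNF, -1.04. The log2 change was -0.68 ± 0.22 (adjusted p = 0.0854). With the replicate block the change passed (adjusted p = 0.00407), where 43.6% of all genes passed.

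TEAD4, the TEAD factor tested among the 10 genes, had siNC CTRL values of 9.45, 9.31 and 9.36 and siEZH2 CTRL values of 9.46, 8.94 and 9.08. The groups overlapped, and the log2 change was -0.22 ± 0.19 (adjusted p = 0.565, 95% interval -0.67 to 0.24). A further TEAD4 probe was detected on 2 of 12 arrays, both of replicate 2, and was not used. TEAD1 signals were 68.7 to 108.4 over the 12 arrays, and its 1 detected array was siRelB CTRL. AMOTL2 signals were 54.0 to 104.8, not above background on any array.

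LATS2, the kinase that restrains YAP and TAZ and is also one of their targets, was weakly expressed. Its signals with siNC CTRL were 84.3, 229.8 and 99.3, the first of them not detected. With siEZH2 CTRL they were 113.3, 278.2 and 134.4. The pair differences were 0.91, 0.49 and 0.57 in replicates 1, 2 and 3 and 1.08 with TNF, so LATS2 was higher with siEZH2 in 4 of 4 pairs. The groups overlapped, and the log2 change was 0.66 ± 0.52 (adjusted p = 0.503). With the replicate block the change passed (adjusted p = 0.00515), where 43.6% of all genes passed. Across all genes, 30.7% were higher in all 4 pairs and 30.2% lower in all 4.

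CCN2 encodes connective tissue growth factor, a secreted matrix-associated protein. Its signal with siNC CTRL was 6359.3, 10496.2 and 6930.5 in replicates 1, 2 and 3. With siEZH2 CTRL it was 13941.9, 14254.7 and 15785.1. Each of these signals was the mean of at least 34 beads, with a median SE between beads of 2.82% over the 12 arrays. All siEZH2 values lay above all siNC values, and the siNC array of replicate 2 came closest. In all, 17.1% of genes had siEZH2 CTRL values wholly above siNC CTRL. The means were 12.91 ± 0.36 (SD, n = 3) and 13.93 ± 0.08, a 2.02-fold rise (log2 change 1.02 ± 0.22, 95% interval 0.50 to 1.54, adjusted p = 0.024). The pairs gave 1.20, 0.53 and 1.32, and the TNF arrays, which the test did not use for this difference, gave 1.30 (signals 5545.2 with siNC and 13299.4 with siEZH2).

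The CCN2 call depended on which arrays were kept. It was lost on leaving out siEZH2 replicate 1 (adjusted p = 0.083), siNC replicate 1 (0.094), siEZH2 replicate 3 (0.096) or siNC replicate 3 (0.110). Without both replicate 2 arrays it was kept, with a log2 change of 1.28, where 31.2% of all genes passed. With the replicate block the adjusted p was 0.00242, where 43.6% of all genes passed.

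CCN1 encodes CYR61, a secreted matrix-associated protein of the same family as CCN2. Its siNC CTRL values were 11.95, 11.86 and 12.11, and its siEZH2 CTRL values were 12.22, 11.39 and 12.28. The siEZH2 array of replicate 2 was the lowest of all 12. The log2 change was -0.01 ± 0.27 (adjusted p = 0.989, 95% interval -0.64 to 0.62), and without both replicate 2 arrays it was 0.22.

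ANKRD1 encodes a nuclear ankyrin-repeat cofactor and is among the most responsive YAP/TEAD targets in many cell types. Its signals with siNC CTRL were 1097.6, 4768.5 and 1394.7, and with siEZH2 CTRL 937.6, 4511.8 and 776.1. Both replicate 2 arrays stood far above the other 10, which lay between 743.1 and 1643.9. Replicate 2 exceeded the mean of replicates 1 and 3 by 1.80 with siNC and 2.30 with siEZH2. Of all genes, 0.456%, ANKRD1 among them, shifted up by at least 1.80 in both groups. LATS2 moved the same way (1.49 and 1.24), YAP1 the other way (-0.58 and -0.55), and 6.78% of all genes were over 2-fold apart in replicate 2 in the same direction in both groups. These 2 arrays also had the highest background, and its part in the difference was not tested. The siEZH2 change of ANKRD1 was -0.35 ± 0.75 (adjusted p = 0.851), with pair differences of -0.22, -0.02, -0.80 and, with TNF, -1.01.

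AXL encodes a receptor tyrosine kinase that binds the ligand GAS6. Its siNC CTRL values were 12.02, 12.39 and 11.93 and its siEZH2 CTRL values 11.96, 11.72 and 11.80. Only siEZH2 replicate 1 reached the siNC range. AXL was lower with siEZH2 in 4 of 4 pairs, by 0.07 to 0.67. Of all genes, 30.2% were lower in all 4. The log2 change of AXL was -0.29 ± 0.19 (adjusted p = 0.408).

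**Figure D2:**
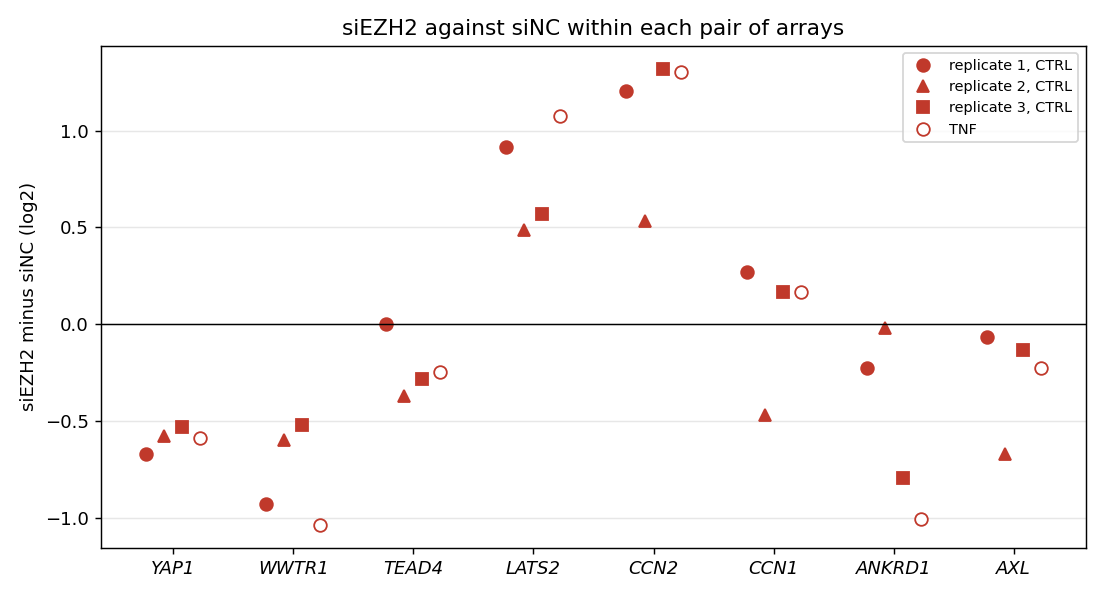
Difference between the siEZH2 and siNC array of the same replicate number (log2, y axis) for each tested gene, in the 3 pairs without TNF (filled) and the TNF pair (open). CCN2 and LATS2 were higher in all 4 pairs, and YAP1, WWTR1, ANKRD1 and AXL lower in all 4. Of all genes tested, 30.7% were higher and 30.2% lower in all 4.

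The replicate block raised the number of YAP/TEAD genes called with siEZH2 from 1 to 4, namely CCN2 and LATS2 higher and YAP1 and WWTR1 lower. It raised the number over all genes from 1815 to 5350, with 22.3% higher and 21.3% lower. On the second set of arrays alone, siEZH2 was compared with siNC as an average over both TNF states, which is not the same comparison. There 5 were called, where 51.2% of all genes were: the same 4 and ANKRD1, which was lower (log2 change -0.92, adjusted p = 0.0147). Without both replicate 2 arrays CCN2, YAP1 and WWTR1 were called, where 31.2% of all genes were. In the first set alone, with 2 arrays against 2, 0 genes passed by limma (1722 at an unadjusted p under 0.05), and CCN2 changed by 0.81 (adjusted p = 0.375).

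Knockdown of RelA asked which genes depend on this NF-kB subunit, averaged over both TNF states (2 arrays against 4). None of the 8 YAP/TEAD genes passed, where 1.94% of all genes passed (238, with 1464 at an unadjusted p under 0.05). CCN2 was nearest, at 13.51 without TNF and 13.39 with it, where the 4 siNC values were 12.45 to 13.32. Its log2 change was 0.72 ± 0.19 (unadjusted p = 0.00344, adjusted p = 0.103). CCN1 values were 12.60 and 12.51, with signals of 6751.5 and 5996.6 and a change of 0.55 ± 0.25 (adjusted p = 0.411). AXL changed by 0.36 ± 0.15 (adjusted p = 0.375). ANKRD1 was 10.03 and 9.48, a change of -0.99 ± 0.70 (adjusted p = 0.691) against siNC values that include replicate 2. On the second set of arrays alone CCN2 (0.89), CCN1 (0.48) and AXL (0.46) passed, where 17.8% of all genes passed, and the same 3 passed without both replicate 2 arrays, where 12.5% of all genes passed.

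YAP1, WWTR1, TEAD4 and LATS2 with siRelA had log2 changes of -0.07, -0.31, 0.21 and 0.06, with adjusted p-values from 0.627 to 0.980. The interval of the YAP1 difference ran from -0.56 to 0.43.

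Knockdown of RelB gave the same count, 0 of 8, where 1.17% of all genes passed (144, with 1284 at an unadjusted p under 0.05). YAP1 values were 12.38 and 12.33, with signals of 5808.7 and 4979.0 and a log2 change of 0.43 ± 0.22 (adjusted p = 0.578). TEAD4 was 9.67 and 9.76, where the 4 siNC values were 9.31 to 9.45, and changed by 0.37 ± 0.16 (adjusted p = 0.463). WWTR1 was 6.55 and 6.38, where the 4 siNC values were 6.59 to 7.07, with a change of -0.46 ± 0.19 (adjusted p = 0.425). CCN2 was 13.33 and 13.12, inside the siNC range only for the TNF array, with a change of 0.50 ± 0.19 (adjusted p = 0.365). CCN1 changed by -0.19, AXL by 0.16, LATS2 by 0.19 and ANKRD1 by -0.54, with adjusted p-values from 0.836 to 0.950. On the second set of arrays alone CCN2 (0.66) and WWTR1 (-0.58) passed, where 16% of all genes passed, and so did they without both replicate 2 arrays, where 11% passed. The siRelA and siRelB comparisons share their siNC arrays.

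**Figure D3:**
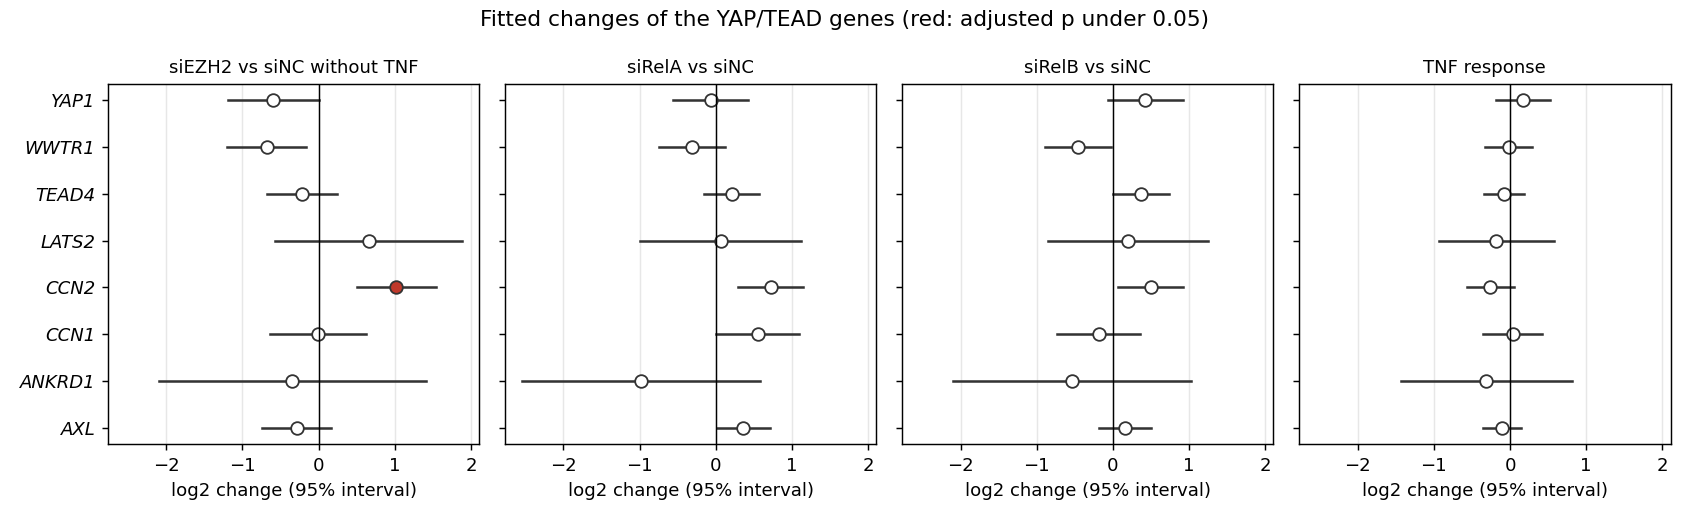
Fitted log2 change (x axis) of each tested YAP/TEAD gene with its 95% interval, for siEZH2 against siNC without TNF, siRelA against siNC, siRelB against siNC, and TNF against CTRL. The red point, CCN2 with siEZH2 at 1.02, is the 1 change with an adjusted p under 0.05.

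Across the 8 groups, CCN2 was highest with siEZH2 (mean 13.93 without TNF, 13.75 with TNF), then siRelA (13.51 and 13.39), siRelB (13.33 and 13.12) and siNC (12.91 and 12.45). The siEZH2 arrays lay above all others, and siNC CTRL replicate 2 (13.32) lay between the siRelB arrays. The siNC CTRL arrays had an SD of 0.36, and the groups with 1 array have no spread of their own. For every siRNA the TNF array was below the CTRL value or mean.

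TNF for 4 h was tested as an average over the 4 siRNAs. That average includes the siRelA and siRelB arrays, so a response that differs between siRNAs could be missed. None of the 8 YAP/TEAD genes passed, and 0.0% of all genes did (0 of 12275 by limma, with 219 at an unadjusted p under 0.05). CCN2 was lower with TNF under siNC, siEZH2, siRelA and siRelB by 0.46, 0.18, 0.12 and 0.22. The siNC difference is from a CTRL mean that includes replicate 2 (13.32). Replicates 1 and 3 were 12.71 and 12.70, and the siNC TNF array was 12.45. With siEZH2, replicate 2 was the lowest CTRL array (13.85, against 13.91 and 14.02). The average log2 change of CCN2 was -0.26 ± 0.14 (unadjusted p = 0.0899, adjusted p = 0.994). AXL was also lower under all 4 siRNAs, by 0.06 to 0.13. YAP1 changed by 0.17, LATS2 by -0.18, ANKRD1 by -0.31, TEAD4 by -0.07, CCN1 by 0.03 and WWTR1 by -0.02, all with adjusted p-values of 0.994 or 0.995. For the difference of the TNF response between siEZH2 and siNC, 0 of 8 YAP/TEAD genes and 0.0% of all genes passed (22 at an unadjusted p under 0.05), and CCN2 had 0.28 ± 0.44. This test has 1 TNF array per arm and assumes that it varies like the replicated groups.

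Other genes of the pathway were grouped into lists. Of 23 Hippo kinases and scaffolds, which act upstream of YAP, 19 were tested and 1 fell with siEZH2, where 6.92% of all genes fell. This was MAP4K4, a kinase that activates LATS, which averaged 8.73 ± 0.11 (SD, n = 3) in siNC CTRL and 8.11 ± 0.11 in siEZH2 CTRL. Its log2 change was -0.62 ± 0.17 (adjusted p = 0.0499). The call was lost in 15 of 26 alternatives, among them median scaling and leaving out any single array of the CTRL groups. With siRelA, MAP4K4 was 7.59 and 7.78, below the other 10 arrays, and fell by 1.05 ± 0.14 on the log2 scale (adjusted p = 0.00358), which was lost on leaving out either siRelA array. The list's median with siEZH2 was 0.07, against -0.01 for all genes, and with the replicate block 3 of the 19 rose and 3 fell, where 22.3% of all genes rose and 21.3% fell.

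Of 9 tested YAP and TAZ binding inhibitors and LATS regulators, 0 passed with any siRNA. Of all genes, 14.8% passed with siEZH2, 1.94% with siRelA and 1.17% with siRelB. With the replicate block 1 of the 9 rose and 2 fell with siEZH2, where 22.3% of all genes rose and 21.3% fell. The largest siEZH2 change was that of YWHAQ, a 14-3-3 protein gene, at -0.64 ± 0.29 (adjusted p = 0.208). Of the other TEAD factors and the VGLL cofactors 4 of 6 were tested. VGLL4, which competes with YAP for TEAD, rose with siEZH2, where 7.87% of all genes rose. VGLL4 averaged 9.52 ± 0.02 (SD, n = 3) with siNC and 10.84 ± 0.29 with siEZH2, a 2.49-fold rise (log2 change 1.32 ± 0.20, adjusted p = 0.00762). With TNF it was 9.48 with siNC and 10.57 with siEZH2. VGLL4 changed by -0.56 with siRelA and -0.36 with siRelB, neither past the threshold (limma adjusted p = 0.161 and 0.514). The remaining TEAD genes of that list, TEAD2 and TEAD3, changed by -0.06 and 0.27 with siEZH2 (adjusted p = 0.954 and 0.795).

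Calls among 21 other YAP/TEAD target genes went both ways with siEZH2. Of these, 3 rose, 2 fell and 16 did not pass, where 7.87% of all genes rose and 6.92% fell, and their median log2 change was 0.11. IGFBP3, a carrier of insulin-like growth factors, rose 10.5-fold, from 7.82 ± 0.27 (SD, n = 3) to 11.22 ± 0.13 (log2 change 3.40 ± 0.20, adjusted p = 0.00144). NT5E, the gene of the ectonucleotidase CD73, rose 1.99-fold, from 11.07 ± 0.12 to 12.06 ± 0.22 (0.99 ± 0.19, adjusted p = 0.0153). NUAK2, an AMPK-related kinase gene, fell from 6.23 ± 0.30 to 5.01 ± 0.20 (-1.23 ± 0.22, adjusted p = 0.0126). It was detected on 1 of 3 siEZH2 CTRL arrays, so the size of its fall is uncertain, and with TNF it was 6.30 with siNC and 5.95 with siEZH2. The other calls were CCDC80 (0.84) and ASAP1 (-0.92), named here after their values were seen. With the replicate block 8 of the 21 rose and 6 fell, where 22.3% of all genes rose and 21.3% fell. The call of IGFBP3, like that of VGLL4, was lost in 1 of 26 alternatives, the first set alone. Those of NT5E, ASAP1, CCDC80 and NUAK2 were also lost on leaving out siNC replicate 1 or siEZH2 replicate 3, and those of CCDC80 and NUAK2 on leaving out siEZH2 replicate 1 or with the authors' values. Leaving out siNC replicate 3 ended the calls of NT5E, ASAP1 and CCDC80, and the second set alone, averaged over both TNF states, that of NUAK2.

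IGFBP3 also rose with siRelA (log2 change 0.95 ± 0.17, adjusted p = 0.0191) and with siRelB (1.48 ± 0.17, adjusted p = 0.00272). Its values were 8.74 and 8.53 with siRelA and 9.16 and 9.17 with siRelB, above the 4 siNC arrays (7.50 to 8.12) and below the 4 siEZH2 arrays. With siRelA the call was lost under median scaling and on leaving out any siRelA array, siNC CTRL replicate 3 or the siNC TNF array, and with siRelB on leaving out either siRelB array. None of the other 20 target genes passed with siRelA or siRelB, and none of the 21 with TNF, where the largest change was that of EDN1, the endothelin gene (0.67 ± 0.15, adjusted p = 0.994). With siRelA 16 of the 21 lay above 0, with a median of 0.29 against 0.03 for all genes. With the replicate block 2 rose and 0 fell with siRelA, where 5.29% of all genes passed in either direction. With siRelB 2 rose and 3 fell under the block, where 3.76% of all genes passed in either direction. That block gave the siRelA and siRelB arrays a term shared with the siNC TNF array and with no siNC CTRL array. On the second set of arrays alone 9 rose and 0 fell with siRelA, where 8.98% of all genes rose and 8.86% fell. There 5 rose and 4 fell with siRelB, where 7.89% of all genes rose and 8.07% fell.

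**Figure D4:**
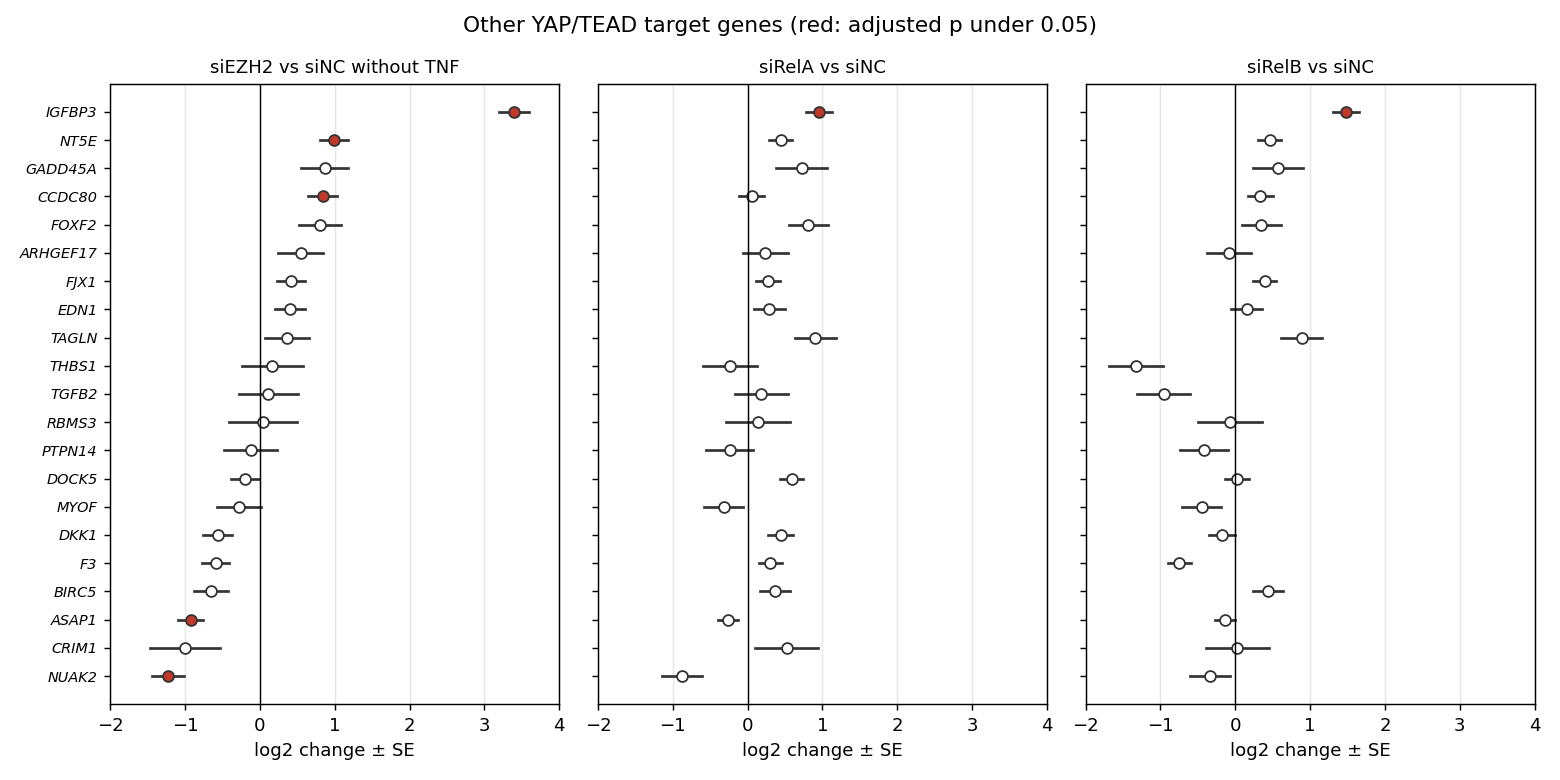
Log2 change with its SE (x axis) of the 21 other YAP/TEAD target genes with siEZH2, siRelA and siRelB, each against siNC, in the order of the siEZH2 change. Red points have an adjusted p under 0.05: IGFBP3 in all 3 panels, and NT5E, CCDC80, ASAP1 and NUAK2 with siEZH2.

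Of the CCN family beyond CCN2 and CCN1, 2 of 4 genes were tested, and 1 rose with siEZH2, where 7.87% of all genes rose. NOV, listed under that name on the array, rose with siEZH2 from a mean of 9.10 ± 0.76 (SD, n = 3) to 10.90 ± 0.59, by 1.79 ± 0.44 (adjusted p = 0.0368). Its call was lost in 9 of 26 alternatives, among them median scaling and leaving out siNC CTRL replicate 1 or 3 or any siEZH2 CTRL replicate. Among 13 tested actin and serum response factor genes, whose expression follows the same cytoskeletal cues as YAP, TPM1 rose with siEZH2 (1.02 ± 0.19, adjusted p = 0.0135). The other 12 did not pass, where 7.87% of all genes rose and 6.92% fell. Leaving out replicate 1 or 3 of siNC CTRL or siEZH2 CTRL ended the TPM1 call. The median of that list was -0.03, and with the replicate block 3 of the 13 rose and 4 fell, where 22.3% of all genes rose and 21.3% fell.

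The genes whose pattern over the 12 arrays was most like that of CCN2 were PLPP1, CCBE1, PEA15, APPL2 and AP3S1. Their root mean square difference from CCN2, after centring each gene on its own mean, was 0.17 to 0.18 log2 units among 9022 genes compared, where CCN2 itself had an SD of 0.51. Those most like YAP1 were CEND1, TRIAP1, AAAS, NUDCD2 and TRNT1, at 0.12 to 0.13 among 10109 genes compared, with an SD of 0.45 for YAP1.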

How the data were processed

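The authors deposited average signal intensity per probe, on a linear scale and without normalization, beside a count of beads, a bead SD and a detection score, per the file headers. BeadStudio 3.2.7 was used, per the submitters' processing notes. A detection p was taken as 1 minus the deposited score. The authors' processed log2 values, also deposited, were used as an alternative only. They equalled log2 signal minus a level per array and a centre per probe, computed separately in 2 sets of arrays (SD of the remainder at most 5.44e-07 within a set over 4621 bright probes). No source used here names the tool that did this.

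In limma 3.58.1 (R 4.3.3), a normal-exponential correction guided by the detection p-values removed background, an offset of 16 was added, and the 12 arrays were quantile normalized and log2 transformed. Probes with a detection p under 0.05 on at least 3 arrays were kept (13884 of 22184), and the brightest kept probe stood for its gene. Symbols were updated through a RefSeq gene table of GRCh38.p14. Of the probes, 17828 carried a current symbol, 3305 matched a synonym, and 183 ambiguous and 868 unmatched ones kept the file's name. Mean beads per probe were 40.8 to 43.1 on 11 arrays and 23.6 on the siNC TNF array. The number of arrays limits the precision.

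Tests were limma's moderated tests over all 12275 genes with Benjamini-Hochberg adjustment at 0.05. They were checked on simulated data with noise independent between genes and arrays. That check did not cover deviations shared by arrays, the interaction with TNF or the replicate block. A mean per group gave siEZH2 against siNC and its interaction with TNF. An additive fit of siRNA and TNF gave the TNF, siRelA and siRelB comparisons. On the second set alone it also gave siEZH2 against siNC, averaged over both TNF states. Replicate numbers of siNC CTRL and siEZH2 CTRL were taken to pair the arrays, because deviations of same-numbered arrays from their group means correlated over genes at 0.757, 0.836 and 0.654. Between the groups, arrays numbered 1 and 3 also correlated, at 0.426 and 0.418. The deviations within a group sum to 0, so these correlations are not independent, and pairing 1 with 1 and 3 with 3 remains an assumption. Alternatives covered the background correction, scaling, detection filter, choice of probe, array weights, arrays left out, the replicate block and the 2 sets of arrays. In the replicate block, all arrays outside siNC CTRL and siEZH2 CTRL shared 1 term. With it, the TNF response rested on the siRelA and siRelB arrays alone. The first set alone, and leaving out each single array of the groups with 1 array other than siNC TNF, were added after the data were seen. Every member is named. From each list and comparison, up to 3 genes past the threshold with the largest change are named, and for likeness the 5 nearest genes. Where none passed, the largest change is named only for YWHAQ with siEZH2 and EDN1 with TNF. The members and lists were chosen with earlier results of these data known. In 1 list, 1 gene is not reported here and is left out of that list's counts.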

Additional observations from a re-analysis of the deposited data

How the results depend on the processing

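The number of genes called, and of the 8 YAP/TEAD genes among them, moved with the arrays kept. With siEZH2 (1815 genes and 1 member), the replicate block, which pairs arrays of the same number, gave 5350 genes and 4 members, array weights 5685 and 4, no replicate 2 arrays 3825 and 3, the second set alone 6282 and 5, the first set alone 0 and 0, and the authors' values 950 genes. Leaving out 1 array gave 607 to 2185 genes and 0 to 2 members. With siRelA (238 and 0), the authors' values gave 101 and 1, these with a term for the set 358 and 1, weights 2274 and 4, the block 649 genes, no replicate 2 arrays 1535 and 3, the second set 2189 and 3, and leaving out 1 array 40 to 465 and 0 to 1. With siRelB (144 and 0), the same settings gave 48 genes, 248 genes, 2938 and 5, 462 genes, 1356 and 2, 1960 and 2, and 19 to 333 and 0 to 1. For TNF (0 genes), weights gave 38, no replicate 2 arrays 2, the second set 1, and leaving out 1 array 0 to 1, with no member called in any. The estimation of array weights for the fit with a mean per group stopped before it converged. The block turned no called direction. Its arrays outside siNC CTRL and siEZH2 CTRL shared 1 term, so its siRelA, siRelB and TNF results had no siNC CTRL array as a direct reference. The second set compared siEZH2 with siNC averaged over both TNF states. The cause of these moves was not tested.

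No called change turned its direction. The changes that did had not passed the test on all arrays. With siEZH2, CCN1 was 0.10 with weights, 0.22 without replicate 2 arrays and 0.17 in the second set, and on leaving out 1 array CCN1 ranged from -0.17 to 0.28 and ANKRD1 from -1.12 to 0.26. For the interaction, YAP1 was -0.016 with median scaling and -0.048 with either form of the authors' values, AXL -0.0056 with both forms, -0.12 with weights and -0.13 without replicate 2 arrays, and CCN1 -0.052 without them. Leaving out 1 array, the interaction ranged from -0.18 to 0.20 for YAP1, -0.075 to 0.15 for AXL, -0.14 to 0.12 for TEAD4, -0.083 to 0.82 for LATS2, -0.11 to 0.33 for CCN1 and -1.27 to 0.10 for ANKRD1. For TNF, the authors' values gave LATS2 0.030, WWTR1 0.046 and YAP1 -0.063, and with a term for the set CCN1 -0.13, ANKRD1 0.070 and LATS2 0.019. Weights gave CCN1 -0.099, ANKRD1 0.090 and LATS2 0.0062. The block, where TNF rested on the siRelA and siRelB arrays alone, gave CCN1 -0.19. No replicate 2 arrays gave CCN1 -0.075, ANKRD1 0.096 and LATS2 0.080, and the second set CCN1 -0.12 and ANKRD1 0.079. Leaving out 1 array, TNF ranged from -0.068 to 0.12 for CCN1 and -0.11 to 0.045 for WWTR1. LATS2 with siRelA was -0.0050 with the set term and -0.16 to 0.39 on leaving out 1 array, and with siRelB LATS2 ranged from -0.029 to 0.52 and ANKRD1 from -0.99 to 0.021. The interaction could not be estimated without a TNF array of siNC or siEZH2, or in the second set.

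LATS2, WWTR1, TEAD1 and AMOTL2 were read near background, which limits what their signals can show.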
